A study of Homo sapiens with 6 samples.

Results

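The genes described here are 10 core genes of the circadian clock, CLOCK, ARNTL (also written BMAL1), PER1, PER2, PER3, CRY1, CRY2, DBP, TEF and BHLHE41, out of 61853 genes in the deposited table. They were chosen by symbol, and each of the 10 matched a single Ensembl identifier. Ribosome-depleted RNA was sequenced from H9, an established line of human embryonic stem cells, on day 0, and from arcuate-type hypothalamic neurons made out of it, on day 30, in 3 libraries each. The day 0 cells were undifferentiated H9 cells grown on matrigel. The day 30 cells had been kept in KSR and then N2 medium, replated once, and exposed to sonic hedgehog and its agonist purmorphamine together with the inhibitors SB431542 and LDN-193189, then to B-27 and the Notch pathway inhibitor DAPT, and finally to B-27 and the growth factor BDNF. Both groups come from 1 line, nothing in the labels says whether replicates were separate cultures, and the p-values therefore measure the spread between these libraries. No source used here gives the hour of collection or the time since the last change of medium. The libraries form no time course, so rhythms were not measured.

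The clock is a feedback loop of transcription. CLOCK and ARNTL form a dimer that binds E-box sequences and switches on the PER and CRY genes, and the PER and CRY proteins then gather and block that dimer. A linked loop runs through the nuclear receptors of the REV-ERB (NR1D1, NR1D2) and ROR families, which repress and activate ARNTL, and through BHLHE40 and BHLHE41, which compete at E-boxes. DBP, TEF and HLF are bZIP factors that carry the rhythm to other genes through D-box sequences, where NFIL3 opposes them. The suprachiasmatic nucleus of the hypothalamus holds the master clock, and clocks also run in arcuate neurons, whereas undifferentiated stem cells are known for lacking a working oscillation.

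The members' promoters were searched for a few fixed strings of letters taken from binding sequences of clock factors. All 10 members had a promoter in the RefSeq set for GRCh38.p14, in 15 windows of 300 bases that run from 250 bases before to 50 bases after a start site. Printed 5′ to 3′ on the gene's strand, the windows below are those of 3 members whose RNA rose (ARNTL, BHLHE41, PER1), the 1 that fell (CRY1) and PER2, and capitals mark the matches to the searched motifs.
ARNTL, chr11:13277540-13277839, plus strand: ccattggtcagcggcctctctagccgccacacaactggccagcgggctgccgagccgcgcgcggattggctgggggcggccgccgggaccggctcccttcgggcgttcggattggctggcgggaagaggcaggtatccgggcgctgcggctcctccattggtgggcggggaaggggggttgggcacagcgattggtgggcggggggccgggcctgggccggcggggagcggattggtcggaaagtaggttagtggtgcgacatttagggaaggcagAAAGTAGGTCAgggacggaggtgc
BHLHE41, chr12:26124988-26125287, minus strand: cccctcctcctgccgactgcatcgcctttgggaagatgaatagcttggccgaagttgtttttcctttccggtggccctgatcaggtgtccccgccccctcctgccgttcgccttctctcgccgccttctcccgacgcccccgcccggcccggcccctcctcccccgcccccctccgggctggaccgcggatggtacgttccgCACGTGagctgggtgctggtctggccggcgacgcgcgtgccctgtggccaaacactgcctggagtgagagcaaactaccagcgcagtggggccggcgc
PER1, chr17:8152355-8152654, minus strand: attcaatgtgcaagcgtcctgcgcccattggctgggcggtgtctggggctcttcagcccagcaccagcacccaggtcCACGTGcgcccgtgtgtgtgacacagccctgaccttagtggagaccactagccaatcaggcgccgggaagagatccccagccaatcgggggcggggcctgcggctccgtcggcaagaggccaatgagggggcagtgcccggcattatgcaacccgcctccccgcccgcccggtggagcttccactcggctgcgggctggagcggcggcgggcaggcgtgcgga
CRY1, chr12:107093500-107093799, minus strand: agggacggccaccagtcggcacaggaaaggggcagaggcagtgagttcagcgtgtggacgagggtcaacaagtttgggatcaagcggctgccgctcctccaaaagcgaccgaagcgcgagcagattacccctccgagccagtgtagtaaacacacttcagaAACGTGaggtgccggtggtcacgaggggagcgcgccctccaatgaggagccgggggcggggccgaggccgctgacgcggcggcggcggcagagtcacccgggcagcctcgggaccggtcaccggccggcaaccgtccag
PER2, chr2:238288561-238288860, minus strand: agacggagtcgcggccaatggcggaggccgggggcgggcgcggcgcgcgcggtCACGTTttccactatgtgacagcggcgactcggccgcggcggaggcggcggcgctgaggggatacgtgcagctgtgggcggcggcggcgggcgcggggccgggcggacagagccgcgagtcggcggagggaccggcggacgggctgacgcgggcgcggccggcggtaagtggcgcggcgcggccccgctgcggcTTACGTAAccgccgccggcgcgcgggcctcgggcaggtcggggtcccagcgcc

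The motifs were searched on both strands: the E-box CACGTG, its variant CACGTT (the E-prime box), the D-boxes TTATGTAA and TTACGTAA, and the ROR element, taken as AGGTCA directly preceded by AAAGT or AAACT. Positions are counted from the start site, whose first base is 1. The E-box was found at −173 in the PER1 window and at −48 in the BHLHE41 window, and TEF carried it in both of its windows, at −195 and −193. The E-prime box was at −197 in PER2 and, on the opposite strand, at −89 in CRY1. It also occurred in 1 window each of CLOCK, at −187, and CRY2, at −188. Thus 7 of the 10 members had one or the other, as had 14.5% of all 27305 genes with a window. A D-box was in PER2, from −3, and in PER3, at −177, against 1.27% of all genes. ARNTL carried the ROR element with AAAGT from base 27, which 3 of all 35116 windows hold (0.00854%). That share counts exact copies of 1 fixed string of 11 letters and does not measure how common ROR elements are. The letters AGGTCA alone were also searched, and outside that string they are not marked by capitals. They were in 16.5% of all genes and, among the members, also in windows of PER1 and CRY2. No searched motif was in the DBP window. A match is a description of the letters, and binding was not measured. Sites that differ from these strings by a letter or lie outside the windows were not searched for.

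The 6 libraries held 5013643 to 12924842 counts. The labelled cell types were checked by summed levels in CPM (a gene's counts scaled to the library's total count), since many markers passed the filter on low counts only through the day on which they are high. The 8 pluripotency markers summed to 4210 to 4670 CPM on day 0 and 10.5 to 13.5 on day 30, and the 8 pan-neuronal markers to 160 to 177 and then 5830 to 6950. The 8 arcuate and hypothalamic markers went from 2.37 to 5.16 CPM up to 1570 to 2250, with RAX at 1 count over day 30. Among 12 markers used for the suprachiasmatic nucleus, AVP, GRP and NMS had no count in any library and VIP had 26, 21 and 8 counts on day 30. VIPR2, with 11 counts over day 0 and 39 over day 30, and LHX1, with 1 and 5, were not tested. Of the 7 tested on that list, VIP, ZFHX3, SIX3 and SIX6 were higher and PROK2, PROKR2 and SYT10 lower. All but ZFHX3 passed the filter on low counts only through the day on which they are high. SIX3 is also on the arcuate and hypothalamic list. Mesenchymal markers differed widely within day 30: their 6 genes summed to 170, 642 and 4590 CPM in replicates 1, 2 and 3, and to 212 to 303 CPM on day 0. Of 6 astroglial markers, the 3 tested (AQP4, SLC1A3 and GJA1) fell, beside 36.8% lower among all genes tested. AQP4 passed the filter on low counts only through day 0. GJA1 stood at a mean of 869 CPM in the undifferentiated day 0 cells, so these falls do not measure astroglia. GFAP, S100B and ALDH1L1 were not tested, with 25, 0 and 21 counts over day 0 and 18, 10 and 5 over day 30. In bulk RNA, fewer cells of a type and less RNA per cell cannot be told apart.

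The clock genes did not move together between day 0 and day 30. Of the 10 members, 4 were higher on day 30 (ARNTL, PER1, CRY2 and BHLHE41), 1 was lower (CRY1), and 5 did not pass the test (CLOCK, PER2, PER3, DBP and TEF). The test was edgeR's quasi-likelihood test, with a Benjamini-Hochberg adjusted p under 0.05 over all 18040 genes tested. By the same rule 39.8% of all genes tested were higher and 36.8% lower, 76.6% together. The 4 of 10 members higher were thus near the share of all genes, and the 1 of 10 lower was under it, a difference read from few genes and not tested. The median log2 change of the members was 0.32, beside 0.08 for all genes tested. Of the 10, 3 changed by 2-fold or more and passed, against 54.4% of all genes. All 10 passed the filter on low counts, but BHLHE41 did so only through its day 30 libraries, so it had to differ. DBP reached the filter's level in every day 0 library but not in day 30 replicate 1 (0.929 CPM). By CPM range alone, all day 30 libraries lay above all day 0 libraries for 5 members, adding CLOCK, and below for 2, adding TEF. The background for that is 43.5% of all genes tested above and 35.9% below, 79.4% together. Scaling by total counts alone called 6 members higher and 1 lower (76.3% of all genes called). The stricter filter on low counts, which left 8 members, called 5 higher and 1 lower (79.3%). DESeq2's Wald test (54.1% of 26968 genes called) and a replicate block (73.9%) each called 4 members higher and 1 lower.

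**Figure D1:**
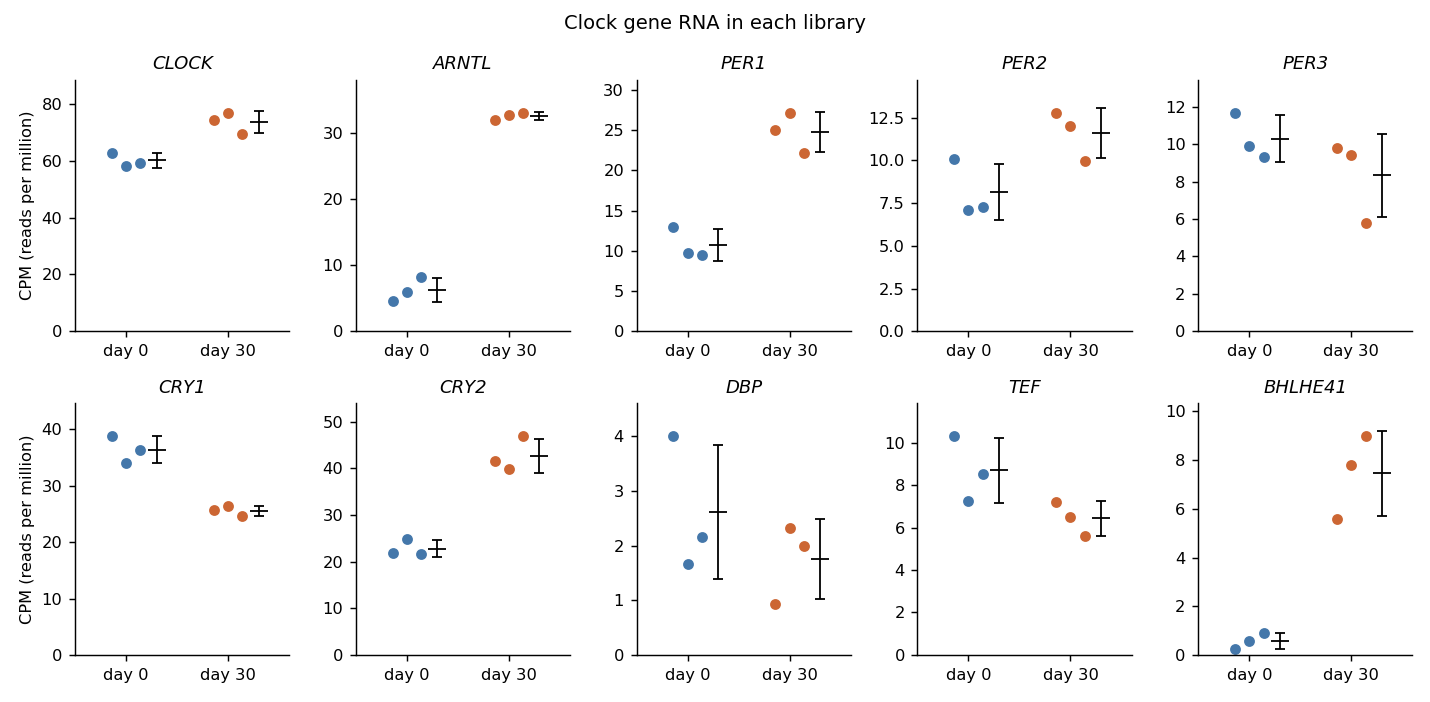
CPM (counts scaled to the library's total) of the 10 clock genes in each library, day 0 in blue and day 30 in orange, with the mean and SD of 3 libraries in black; each panel has its own vertical axis from 0. The day 30 points of ARNTL, PER1, CRY2, BHLHE41 and CLOCK lie above all day 0 points, those of CRY1 and TEF lie below, and those of PER2, PER3 and DBP overlap.

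The activators CLOCK and ARNTL, which work as a dimer, behaved differently. ARNTL (ENSG00000133794.20, chromosome 11, 13276652 to 13387266, hg38), the partner whose loss abolishes behavioural rhythms in mice, stood at 4.51, 5.99 and 8.19 CPM in the day 0 libraries and at 31.9, 32.7 and 33.1 CPM in the day 30 libraries. The groups lay far apart, and the day 30 libraries differed little from each other. The log2 change was 2.27 ± 0.21 (SE, edgeR adjusted p = 2.74e-06), a 4.83-fold rise. CLOCK (ENSG00000134852.15, chromosome 4, 55427903 to 55547138), the histone acetyltransferase partner, stood at 63, 58.2 and 59.2 CPM on day 0 and at 74.3, 77.1 and 69.4 CPM on day 30. Its groups did not overlap, but the difference was small. The log2 value of 0.20 ± 0.11, with a 95% interval of −0.04 to 0.44, did not pass (edgeR adjusted p = 0.108). CLOCK did pass when libraries were scaled by total counts alone (0.29, edgeR adjusted p = 0.0206), with the stricter filter on low counts (0.32, edgeR adjusted p = 0.0124) and without day 30 replicate 3 (0.28, edgeR adjusted p = 0.0357).

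The paralogs of these activators also parted. NPAS2, which can take the place of CLOCK in the dimer and is known from the forebrain, rose from 1.8, 2.37 and 1.93 CPM to 12.2, 12.9 and 19.7 CPM. Every day 30 library was above every day 0 library, and replicate 3 was the highest. Its log2 change was 2.75 ± 0.27 (edgeR adjusted p = 4.04e-06). ARNTL2, the paralog of ARNTL, went the other way, from 51.3, 57.8 and 68.9 CPM to 49.5, 48.7 and 40.7 CPM, a log2 change of −0.45 ± 0.16 (edgeR adjusted p = 0.0241). This call rested on single libraries: without day 0 replicate 3 it was −0.31 (edgeR adjusted p = 0.0935) and without day 30 replicate 3 it was −0.33 (edgeR adjusted p = 0.08). It also did not pass with the stricter filter on low counts (edgeR adjusted p = 0.0679).

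The 3 PER genes, which encode the PAS-domain repressors that set the pace of the loop, also differed from one another. PER1 (ENSG00000179094.16, chromosome 17, 8140472 to 8156506) stood at 13, 9.68 and 9.44 CPM on day 0 and at 25, 27.2 and 22.2 CPM on day 30. No libraries overlapped. The log2 change was 1.13 ± 0.16 (edgeR adjusted p = 8.2e-05), 2.19-fold. PER2 (ENSG00000132326.12, chromosome 2, 238244038 to 238290102) stood at 10.1, 7.1 and 7.28 CPM and then at 12.8, 12 and 9.97 CPM, so that the highest day 0 library reached the lowest day 30 library. Its log2 value of 0.44 ± 0.20 did not pass (95% interval −0.01 to 0.89, edgeR adjusted p = 0.0699). Without day 0 replicate 1 or without day 30 replicate 3, the libraries that met, it was 0.54 (edgeR adjusted p = 0.0416) and 0.56 (edgeR adjusted p = 0.0352). With total counts only it was 0.52 (edgeR adjusted p = 0.0428), and with the stricter filter 0.55 (edgeR adjusted p = 0.028).

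PER3 (ENSG00000049246.15, chromosome 1, 7784320 to 7845177), the PER gene that the mouse loop can run without, stood at 11.7, 9.89 and 9.32 CPM on day 0 and at 9.81, 9.44 and 5.78 CPM on day 30. The groups overlapped, with day 30 replicate 3 low. The log2 value of −0.35 ± 0.23 did not pass (95% interval −0.86 to 0.15, edgeR adjusted p = 0.182). Its exons share 868 of 8099 bases with UTS2 on the opposite strand, the gene of the peptide urotensin 2. UTS2 had no count on day 0 and 410, 542 and 448 CPM on day 30. The protocol names a stranded kit, and no source used here gives the strand setting of the counting. PER3 counts in the day 30 libraries were 95, 122 and 29 beside 3974.5, 7009.5 and 2247.5 for UTS2 in the same libraries. Whether any of the PER3 counts on day 30 belong to UTS2 was not tested.

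The cryptochromes, light-insensitive repressors in mammals that bind the CLOCK and ARNTL dimer, exchanged places. CRY1 (ENSG00000008405.12, chromosome 12, 106991364 to 107093829), the stronger repressor of the pair in mice, stood at 38.8, 34 and 36.4 CPM on day 0 and at 25.8, 26.5 and 24.7 CPM on day 30. All day 30 libraries were below all day 0 libraries. It fell by 0.59 ± 0.12 on the log2 scale (edgeR adjusted p = 0.00103), which makes it the only member called lower. CRY2 (ENSG00000121671.12, chromosome 11, 45847118 to 45883248) stood at 21.8, 24.9 and 21.7 CPM and then at 41.5, 39.8 and 46.9 CPM. It rose by 0.81 ± 0.13 on the log2 scale (edgeR adjusted p = 0.000177), 1.75-fold. Both calls held in all 13 alternatives of processing, as did those of ARNTL and PER1.

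BHLHE41 (ENSG00000123095.6, chromosome 12, 26120026 to 26125127), the E-box repressor DEC2, had the largest change of the 10. It stood at 0.258, 0.557 and 0.91 CPM on day 0, from 2, 4 and 8 counts, and at 5.57, 7.81 and 8.98 CPM on day 30, from 54, 101 and 45 counts. The groups were far apart, and the day 0 level rests on 14 counts in all. The log2 change was 3.52 ± 0.40 (edgeR adjusted p = 1.45e-05), and it ranged from 3.11 without day 0 replicate 1 to 4.07 without day 0 replicate 3. Its paralog BHLHE40 (DEC1) could not be called, because the day 0 libraries stood at 3.22, 10.3 and 25.4 CPM. The day 30 libraries, at 20.2, 22.1 and 16.4 CPM, lay inside that range. The log2 value was 0.47 ± 0.51 (edgeR adjusted p = 0.415). Without day 0 replicate 3 it was 1.47 (edgeR adjusted p = 0.00718), and without day 0 replicate 1 it was −0.03 (edgeR adjusted p = 0.93).

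The bZIP output factors DBP and TEF did not pass, though both values were below 0. DBP (ENSG00000105516.11, chromosome 19, 48630030 to 48637438), a strongly cycling gene in many tissues, had only 62 counts over day 0 and 49 over day 30. It stood at 4, 1.67 and 2.16 CPM and then at 0.929, 2.32 and 1.99 CPM, with overlapping groups. The log2 value of −0.66 ± 0.42 has a 95% interval from −1.59 to 0.28 (edgeR adjusted p = 0.18), so a 2-fold fall could not be seen or set aside at this depth. SPHK2 on the opposite strand shares 661 of its 6544 exon bases. TEF (ENSG00000167074.15, chromosome 22, 41367333 to 41399326) stood at 10.3, 7.24 and 8.53 CPM on day 0 and at 7.22, 6.5 and 5.58 CPM on day 30, groups that all but touched. Its log2 value was −0.50 ± 0.22 (95% interval −0.99 to −0.02, edgeR adjusted p = 0.0544), just outside the threshold. It passed with DESeq2's size factors in edgeR (−0.52, edgeR adjusted p = 0.0476) and without day 0 replicate 2 (−0.64, edgeR adjusted p = 0.0367).

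The other bZIP factors rose. HLF, the third factor of the DBP and TEF family, had 5 counts in all on day 0 and 49 on day 30, or 0, 0.279 and 0.341 CPM against 2.17, 1.55 and 1.6 CPM. It passed the filter on low counts only through day 30, with a log2 change of 2.91 ± 0.60 (edgeR adjusted p = 0.00111). NFIL3, the repressor at D-boxes, went from 15.6, 11.1 and 14.2 CPM to 26.4, 31.3 and 28.5 CPM, with no overlap. Its log2 change was 0.98 ± 0.16 (edgeR adjusted p = 0.000167).

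**Figure D2:**
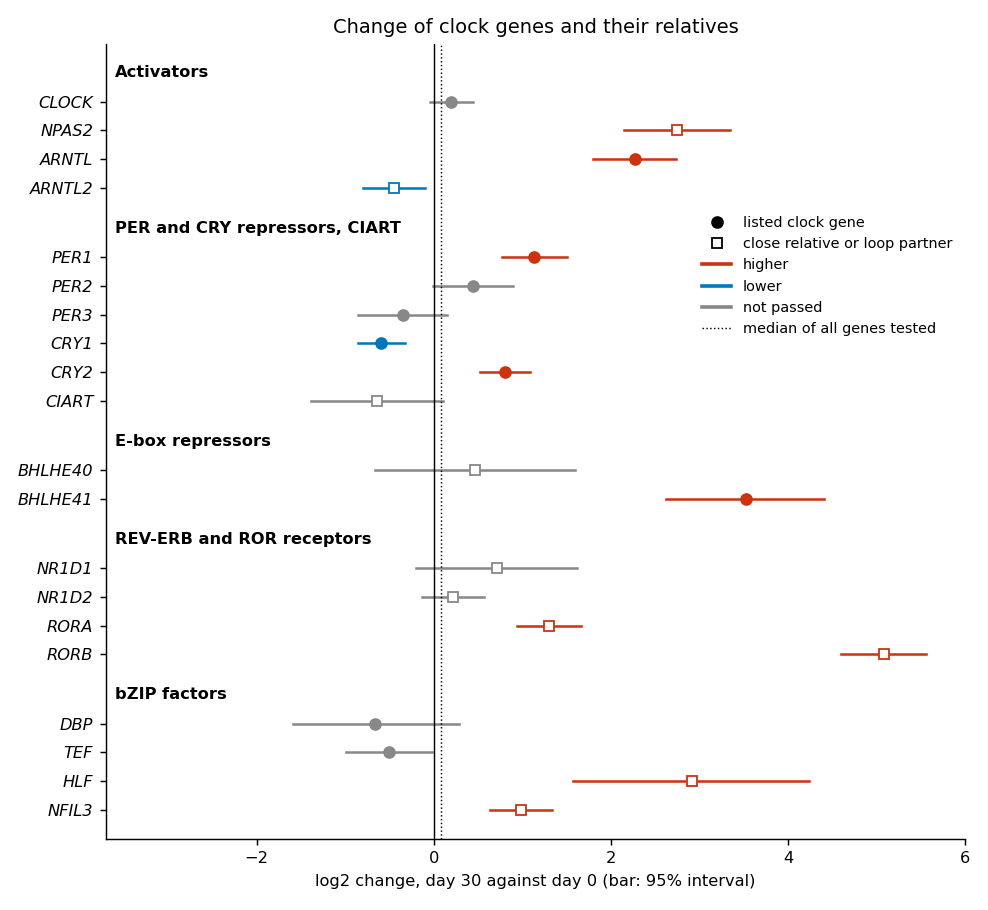
Log2 change of day 30 against day 0 for the 10 clock genes (filled circles) and 10 tested relatives and loop partners (open squares), grouped by role, with 95% intervals; red passed higher, blue passed lower, grey did not pass, and the dotted line is the median of all genes tested, 0.08. RORB, at 5.08, and BHLHE41, at 3.52, lie farthest to the right, and CRY1 and ARNTL2 are the genes that passed below 0.

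The receptors that act on ARNTL through ROR elements, such as the one printed above, differed by family. RORB, a ROR activator known from the suprachiasmatic nucleus, retina and cortex, went from 2.71, 2.65 and 4.89 CPM to 127, 131 and 120 CPM, a log2 change of 5.08 ± 0.22 (edgeR adjusted p = 7e-09). RORA went from 27.2, 16 and 21.3 CPM to 53.3, 57.4 and 58.3 CPM, a log2 change of 1.30 ± 0.16 (edgeR adjusted p = 2.99e-05). The REV-ERB repressors did not pass. NR1D2 stood at 52.7, 51 and 58.9 CPM and then at 78.4, 67.6 and 54.5 CPM, overlapping through day 30 replicate 3, and its log2 value was 0.22 ± 0.16 (edgeR adjusted p = 0.23). Without that library it was 0.38 (edgeR adjusted p = 0.0262). NR1D1, which passed the filter on low counts only through day 30, had 33 and 69 counts over the days and a log2 value of 0.71 ± 0.41 (edgeR adjusted p = 0.138), and 263 of its 2772 exon bases lie under THRA on the opposite strand, whose log2 value was 2.06. CIART, another repressor of the CLOCK and ARNTL dimer, stood at 5.16, 6.27 and 6.25 CPM and then at 4.64, 4.95 and 1.8 CPM (log2 value −0.64 ± 0.33, edgeR adjusted p = 0.102). In all, 5 of the 10 tested relatives and loop partners rose and 1 fell, with a median of 0.84, beside 39.8% higher, 36.8% lower and a median of 0.08 for all genes tested.

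Levels of different genes were compared per exon length, as TPM (counts per kilobase of merged exons, scaled to one fixed sum in every library). On day 0 the order ran CRY1 (12.5 ± 1.12 TPM, SD, n = 3), CLOCK (8.91 ± 0.548), CRY2 (6.4 ± 0.376), TEF (3.21 ± 0.589), PER1 (2.66 ± 0.452), PER3 (2.21 ± 0.225), PER2 (2.06 ± 0.392), ARNTL (1.63 ± 0.566), DBP (0.693 ± 0.315) and BHLHE41 (0.258 ± 0.158). From TEF to ARNTL the ranges of each pair of neighbours overlapped, so neighbours among those 5 cannot be ordered. The ranges of TEF and ARNTL themselves did not overlap, and the first 3 and the last 2 genes stood apart from their neighbours. Between the last 2 the gap was slight, with the lowest DBP library at 0.428 TPM and the highest BHLHE41 library at 0.426 TPM. On day 30 it ran CRY2 (12.4 ± 1.92 TPM), CLOCK (11.2 ± 0.779), CRY1 (9.05 ± 0.645), ARNTL (8.66 ± 0.868), PER1 (6.33 ± 0.626), BHLHE41 (3.42 ± 1.04), PER2 (2.99 ± 0.186), TEF (2.42 ± 0.126), PER3 (1.82 ± 0.391) and DBP (0.486 ± 0.222). Among neighbours there, the ranges of CRY2 and CLOCK overlapped, as did those of CRY1 and ARNTL and of BHLHE41 and PER2. BHLHE41 (2.31 to 4.37 TPM) also overlapped TEF (2.28 to 2.5 TPM). ARNTL thus went from below TEF and PER1 to above both, and DBP stayed among the lowest. For PER2 the days overlapped in CPM but not in TPM (1.73 to 2.49 against 2.79 to 3.15). Merged exons hold the exons of all annotated isoforms, which can understate a level.

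**Figure D3:**
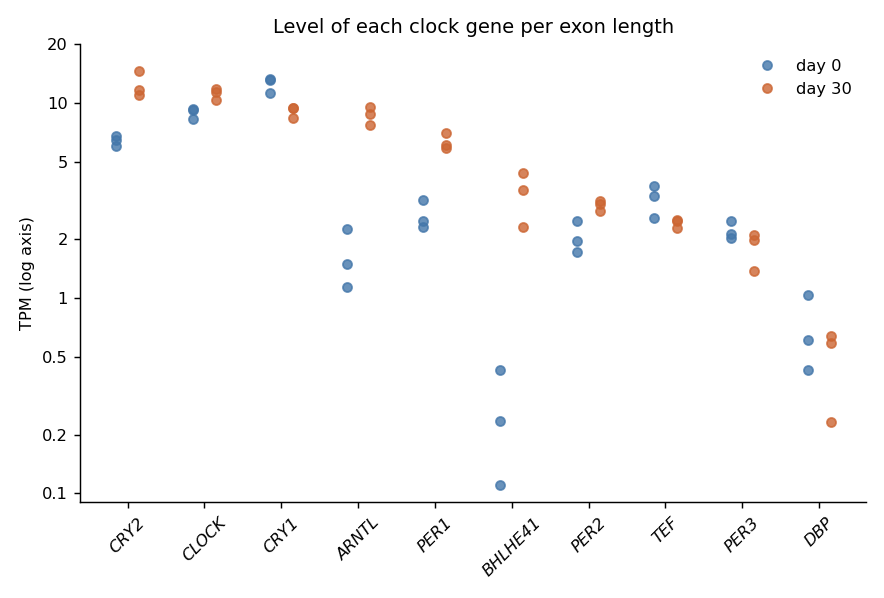
TPM of the 10 clock genes in each library on a log axis, day 0 in blue and day 30 in orange, ordered by the day 30 mean. ARNTL and BHLHE41 show the widest gaps between days on this axis, with means of 1.63 against 8.66 TPM and 0.258 against 3.42 TPM.

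Ratios of related genes within a library do not depend on how libraries are scaled, and 8 were computed. The ratio of CRY2 to CRY1, per kilobase of exon, was 0.459, 0.599 and 0.488 on day 0 and 1.31, 1.23 and 1.54 on day 30. CRY1 was thus the more abundant cryptochrome in each day 0 library and CRY2 in each day 30 library. The ratio rose 2.65-fold, a log2 difference of 1.4. For an exact permutation test the smallest p that 3 against 3 libraries can give is 0.1, so no ratio could pass. That value was reached here (2-sided exact p = 0.1, adjusted over the 8 ratios 0.133). ARNTL2 exceeded ARNTL 10.8-, 9.2- and 8.06-fold on day 0, and 1.5-, 1.44- and 1.18-fold on day 30, so that the excess shrank without turning. NPAS2 stayed below CLOCK in every library, but the ratio went from 0.0279, 0.0394 and 0.0316 to 0.155, 0.158 and 0.269.

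Within the PER family the balance moved toward PER1. The ratio of PER2 to PER1 was 0.787, 0.749 and 0.786 on day 0 and 0.522, 0.449 and 0.459 on day 30, with a spread between libraries far smaller than the gap. PER3 to PER1 went from 0.779, 0.883 and 0.854 to 0.34, 0.3 and 0.228. The day 30 values rest on PER3 counts of 95, 122 and 29, and the overlap of PER3 with UTS2 bears on this ratio too. BHLHE41 was at 0.0953, 0.0587 and 0.037 of BHLHE40 on day 0 and at 0.27, 0.346 and 0.536 on day 30. Its day 0 values rest on 2, 4 and 8 counts of BHLHE41, which passed the filter on low counts only through day 30. BHLHE40 itself ranged from 3.22 to 25.4 CPM on day 0. Each of these 6 ratios had groups that did not overlap and the same exact permutation p of 0.1 (adjusted 0.133). The ratios of NR1D2 to NR1D1 (log2 difference −0.59, exact permutation p = 0.6) and of TEF to DBP (0.14, exact permutation p = 0.8) overlapped between the days.

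**Figure D4:**
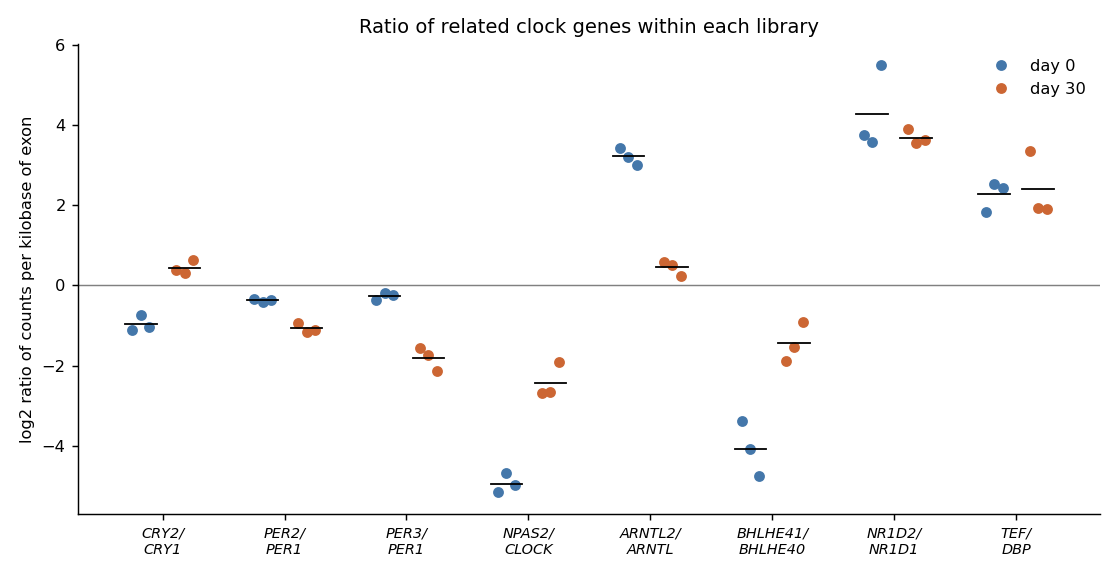
Log2 ratio of counts per kilobase of exon for 8 pairs of related genes in each library, day 0 in blue and day 30 in orange, with the mean of 3 libraries as a black line; at 0 both genes of a pair are equal. CRY2 over CRY1 crosses 0, from a mean of −0.97 to 0.44, and ARNTL2 over ARNTL falls from 3.22 to 0.45.

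Of 17 tested kinases, ubiquitin ligases and related enzymes that act on PER and CRY proteins, 7 rose and 6 fell, with a median log2 change of 0.19. Those counts are near the shares of all genes tested, 39.8% higher and 36.8% lower. The rises were led by GSK3B (102 ± 10.9 to 229 ± 13.9 CPM, SD, n = 3), a kinase of several clock proteins, at 1.09 ± 0.11 on the log2 scale. BTRC, the F-box protein that marks PER for decay, rose by 1.06. Among those that fell were USP2, a deubiquitinase that itself cycles in many tissues (3.58 ± 0.763 to 1.08 ± 0.206 CPM) and passed the filter on low counts only through day 0, the casein kinase 2 subunit CSNK2A2, which fell by 1.19, and the deubiquitinase USP7, which fell by 0.73. The casein kinases that phosphorylate PER are named here after their values were seen: CSNK1D rose by 0.53, CSNK1A1 fell by 0.55, and CSNK1E, at a log2 value of 0.14, was not called (edgeR adjusted p = 0.261). CSNK2B lies in the MHC region of chromosome 6, held at most 1.5 counts in a library and was not tested.

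Of 11 cofactors of the clock, 7 fell and 1 rose, with a median of −0.62, beside 36.8% lower, 39.8% higher and a median of 0.08 for all genes tested. TIPIN, which passed the filter on low counts only through day 0, fell by 3.03 and its partner TIMELESS by 2.9 (94.6 ± 5.04 to 13.6 ± 1.33 CPM). Both proteins also act at replication forks. The pluripotency markers' summed level, given above, fell beside them, and the part of that change in these values was not tested. SIRT1, the deacetylase that acts on ARNTL and PER2, fell by 1.56. CREBBP, a coactivator of the CLOCK and ARNTL dimer, was the 1 that rose, by 0.46.

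PER1 is also known to respond within an hour to serum and neuronal activity, so 10 genes with that response were listed beside it. Of 8 tested, 7 rose, FOSB among them only through its day 30 level, and 1 fell, with a median of 1.28, beside 39.8% higher, 36.8% lower and a median of 0.08 for all genes tested. DUSP1, a phosphatase, had the largest rise, from 5.14 ± 1.52 to 44.5 ± 7.2 CPM (SD, n = 3), and IER2 fell from 64.6 ± 7.38 to 18.8 ± 1.91 CPM. Their part in the PER1 value was not tested. The mesenchymal markers that were high in day 30 replicate 3 also had no tested part in the clock values. Without that library, PER1 was at 1.24, ARNTL at 2.31, CRY1 at −0.53, CRY2 at 0.78 and BHLHE41 at 3.43 on the log2 scale, and each passed, while CLOCK and PER2 passed too.

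The genes whose profile over the 6 libraries was nearest to that of BHLHE41, by Euclidean distance of centred log2 CPM, were EFCAB6 (0.312), ZNF487 (0.361) and the non-coding RNA LINC01963 (0.382), among 188 genes within a distance of 1. Those nearest to CRY1 were DDX50 (0.0883), CSNK1A1 (0.103) and KDM1A (0.105). Within a distance of 1 of CRY1 lay 5260 genes. Because CRY1 changed little, that distance also takes in genes that hardly changed, so the count does not show how common such a fall is.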

How the data were processed

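Per the labels' protocols, TRIzol-extracted RNA was freed of ribosomal RNA, built into stranded Illumina TruSeq libraries and run on a NovaSeq. The submitters' processing notes name FastQC 0.11.9 and hg38. Aligner, counter and strand setting stand as not given in the sources used here. What the authors deposited are expected counts per gene (92.6% of all values whole, 83.7% of those above 0), rounded to whole numbers here because the plan had allowed for either kind. Genes were placed with GENCODE release 29.

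Tests used edgeR 4.0.16 in R 4.3.3, with filterByExpr (minimum count 10), TMM normalization and the quasi-likelihood test on all 6 libraries, which left 18040 genes. The standard error is the absolute log2 change over the square root of F. CPM uses total counts. Log2 ratios had 0.5 counts added. DESeq2 1.42.0 was an alternative. The fit was tested on simulated data. The members and lists were chosen with earlier results of these data known. Named were all members and relatives, up to 3 leading rises and falls of the other clock lists, the leading rise and fall of the activity list, and 3 nearest profiles. Columns of values not used numbered 0. Same-numbered libraries of the 2 days did not deviate together. Some genes that this rule names are not reported here.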

Additional observations from a re-analysis of the deposited data

How the results depend on the processing

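ARNTL, PER1, CRY1, CRY2 and BHLHE41 kept their direction and their call in every alternative in which they were tested. BHLHE41 and DBP fell below the stricter filter, at least 50 counts in 3 libraries. BHLHE41 had passed the main filter only through day 30, so its kept call cannot be read like those of ARNTL, PER1, CRY1 and CRY2. Members called higher numbered 4 to 6 and lower 1 to 2 with 1 library left out, and 2 were lower with DESeq2's size factors in edgeR. The relatives called lower numbered 0 with the stricter filter and 0 to 1 with 1 library left out. With 1 library left out, the log2 value of BHLHE40 ranged from −0.03 to 1.47, and the log2 difference from −0.93 to 0.02 for NR1D2 over NR1D1 and from −0.34 to 0.39 for TEF over DBP. The cause of these shifts was not tested. Over all genes tested, 6783 to 7441 were higher and 6352 to 6718 lower with 1 library left out. With a replicate block 6921 were higher and 6415 lower, with 4 members higher and 1 lower, as without it. Same-numbered libraries correlated with r of 0.0749, −0.00415 and −0.0493 in their deviations. Differently numbered libraries gave r from −0.13 to 0.134. Such values cannot show whether libraries were paired by culture. Scaling by total counts alone moved the median log2 change of all genes from 0.0809 to 0.174, and 6 members were then higher. Depth limits DBP, NR1D1 and HLF most.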
